A study of Sus scrofa with 8 samples.

Results

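Transcripts of LIF and interleukin-6 signalling were examined in the endometrium of gilts at gestation day 12. The members were LIF, LIFR, IL6, IL6R, IL6ST, JAK1, STAT3, SOCS3, CEBPB and CEBPD, and they were taken as every probeset that the annotation of the array, or the gene names given by the study, assigns to one of these 10 symbols. This gave 11 probesets of 8 genes, of 23999 probesets tested in all, with 3 probesets for CEBPD, 2 for JAK1 and 1 for each of LIF, IL6, IL6R, STAT3, SOCS3 and CEBPB. LIFR and IL6ST had 0 probesets under these names and were not analysed here. Endometrium had been collected from 4 Meishan gilts, a prolific breed, and 4 Yorkshire gilts, each mated to boars of its own breed and kept only where conceptuses had elongated. RNA of each gilt had been hybridized to 1 Affymetrix Porcine Genome array. The samples were whole endometrium, so epithelium, stroma, vessels and immune cells all contributed RNA. Each value below is a signal, the brightness of a probeset after all arrays were brought to a common median of 183.0. Signals of different probesets are not read as relative amounts of RNA. They are ranked by brightness, summed over cell type markers, or subtracted within a gilt between probesets of 1 gene.

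LIF is a secreted cytokine of the interleukin-6 family. It acts through LIFR paired with IL6ST, and interleukin-6 acts through IL6R paired with the same IL6ST subunit. Janus kinases such as JAK1, bound to these receptors, phosphorylate the transcription factor STAT3, which enters the nucleus and induces SOCS3, an inhibitor that shuts the receptor complex down. STAT3 also induces CEBPD, a leucine zipper transcription factor whose relative CEBPB was first known as a nuclear factor for interleukin-6. In mice, uterine LIF is required for implantation, and in pigs LIF and interleukin-6 are produced at the boundary of uterus and conceptus around the time of maternal recognition of pregnancy.

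Across these genes, 0 of the 11 probesets were called in limma (adjusted p under 0.1), against 0.908% of all tested probesets, of which 0.404% were called toward Meishan and 0.504% toward Yorkshire. CEBPD came nearest, with less of it in Meishan at all 3 of its probesets and no overlap between the breeds at the brightest one. LIF, IL6, IL6R, JAK1 at its brighter probeset, STAT3 and SOCS3 also lay toward Yorkshire, but gilts of both breeds overlapped for each of them. CEBPB and the dimmer JAK1 probeset lay toward Meishan. In all, 9 of the 11 probesets had a negative log2 difference (Meishan minus Yorkshire), and so did 48.3% of all tested probesets. The median log2 difference was -0.37 over the 11 member probesets and 0.02 over all tested probesets. The members' median was -0.047 without Meishan gilt 4 and -0.13 with signals below 32 set to 32. Before adjustment 1 member probeset had a p under 0.05, against 14.8% of all tested probesets. Meishan and Yorkshire gilts stood apart at 1 member probeset, with Yorkshire above, against 10.1% of all tested probesets (5.01% with Meishan above and 5.09% with Yorkshire above). A single probeset of 11 is no more than the share found over the whole array.

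**Figure D1:**
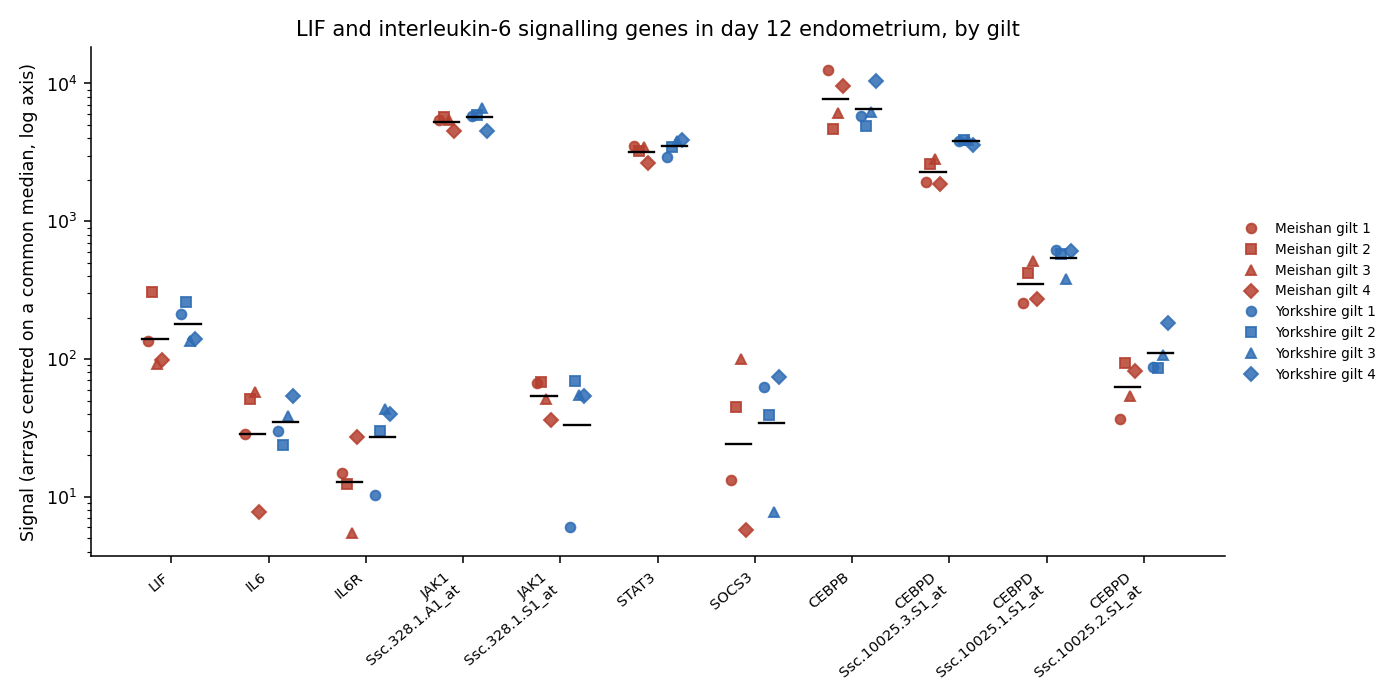
Signal of each member probeset in each gilt, on a log axis; red marks are Meishan and blue marks Yorkshire gilts, a marker shape stands for 1 gilt number and black bars are geometric means of 4 gilts. At the brightest CEBPD probeset the 4 Meishan gilts lie between 1855 and 2813 and the 4 Yorkshire gilts between 3561 and 3917, whereas the breeds overlap at the other 10 probesets.

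The ligands were LIF and IL6. LIF had signals of 134, 309, 91.3 and 97.8 in Meishan gilts 1 to 4, against 212, 258, 135 and 139 in Yorkshire gilts 1 to 4. Meishan gilt 2 had the highest signal of all 8 and Meishan gilts 3 and 4 the lowest, so the breeds overlapped. Between breeds the log2 difference was -0.37 (SE 0.43, 95% confidence interval -1.35 to 0.61, limma adjusted p = 0.731, n = 4 gilts per breed). Without Meishan gilt 2 it was -0.75 (limma adjusted p = 0.329) and the breeds no longer overlapped, as for 15.3% of all probesets without that gilt. This gilt was named after the values were seen, because the breeds part at LIF without it. The share is for 1 fixed gilt, so it does not show how often leaving out some gilt parts the breeds.

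IL6 was dim on every array. Its signals were 28.7, 51.2, 57.3 and 7.77 in Meishan gilts, against 30.3, 23.8, 38.6 and 53.6 in Yorkshire gilts. The lowest signal of the 8 was that of Meishan gilt 4, and the other 7 gilts of both breeds were intermingled. The log2 difference of -0.30 (SE 0.63, interval -1.74 to 1.14, limma adjusted p = 0.863) turned to 0.33 without Meishan gilt 4. The mean log2 signal of this probeset lay at the 19.3rd percentile of all tested probesets, and probesets of like brightness had a median log2 difference of 0.31 toward Meishan.

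Of the receptors, only IL6R, the chain that binds interleukin-6, was measured. IL6R signals were 14.9, 12.4, 5.45 and 27.3 in Meishan gilts, against 10.2, 30.2, 43.3 and 39.7 in Yorkshire gilts. All Yorkshire gilts but gilt 1 lay above all Meishan gilts. At the 11.8th percentile of brightness, IL6R was the dimmest of the 11 member probesets. Probesets of like brightness had a median log2 difference of 0.31 toward Meishan. IL6R had a log2 difference of -1.07 (SE 0.60, interval -2.45 to 0.32, limma adjusted p = 0.453) and that was the largest in size among the 11 member probesets. Without Yorkshire gilt 1, a gilt also named after the values were seen, it was -1.53 (limma adjusted p = 0.308). The breeds then did not overlap, as for 13.3% of all probesets without that fixed gilt. The log2 difference of IL6R was -0.21 when signals below 32 were set to 32. All 4 Meishan signals and those of Yorkshire gilts 1 and 2 lie under that level. In whole tissue, fewer cells of a type and less RNA per cell cannot be told apart.

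JAK1, the kinase shared by receptors of this family, had a bright probeset, at the 98.0th percentile of brightness, and a dimmer one. Signals at the brighter one were 5401, 5679, 5420 and 4504 in Meishan gilts and 5854, 5865, 6687 and 4535 in Yorkshire gilts. The gilts of a breed lay within a 1.26-fold range in Meishan and a 1.47-fold range in Yorkshire. This gave a log2 difference of -0.12 (SE 0.19, interval -0.55 to 0.31, limma adjusted p = 0.810). Without Yorkshire gilt 4, likewise named after the values were seen, it was -0.23 (limma adjusted p = 0.608). The breeds then did not overlap, as for 15.6% of all probesets without that fixed gilt. The second JAK1 probeset was dim, with 67.2, 68.2, 50.9 and 36.1 in Meishan gilts and 6.07, 69.8, 54.4 and 54.2 in Yorkshire gilts. At 0.69 (SE 0.75, limma adjusted p = 0.714), its log2 difference rested on Yorkshire gilt 1 and was -0.13 without that gilt. The breed differences of the JAK1 probesets differed from each other by -0.81 on the log2 scale, brighter minus dimmer (two-sided exact permutation test, p = 0.486, where 70 divisions of 8 gilts allow no p below 0.0286). Their deviations from the breed means had a Pearson correlation of 0.04 over the 8 gilts.

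STAT3, the transcription factor that carries the signal, also varied little. Its signals were 3512, 3258, 3450 and 2665 in Meishan gilts and 2912, 3431, 3833 and 3894 in Yorkshire gilts. The lowest signal was in Meishan gilt 4 and the highest in Yorkshire gilt 4, with the remaining gilts mixed. For STAT3 the log2 difference was -0.13 (SE 0.18, interval -0.55 to 0.30, limma adjusted p = 0.795). The intervals of STAT3 and of the brighter JAK1 probeset leave out any difference of more than 0.55 on the log2 scale in either direction. Within breeds, the SD of the log2 signal was 0.19 for STAT3 and 0.20 for JAK1, against a median of 0.27 among probesets of like brightness.

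SOCS3, the feedback inhibitor, was the member with the widest spread among gilts. Its signals were 13.4, 45.0, 99.3 and 5.76 in Meishan gilts and 62.9, 39.3, 7.73 and 74.6 in Yorkshire gilts. Each breed held gilts with very low signals (Meishan gilts 1 and 4, Yorkshire gilt 3) and gilts well above them. The range was 17.2-fold in Meishan and 9.64-fold in Yorkshire. Its log2 difference was -0.51 (SE 1.02, interval -2.87 to 1.84, limma adjusted p = 0.855), and it was 0.18 without Meishan gilt 4. The within-breed SD of 1.67 on the log2 scale stood against a median of 1.16 among equally dim probesets.

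**Figure D2:**
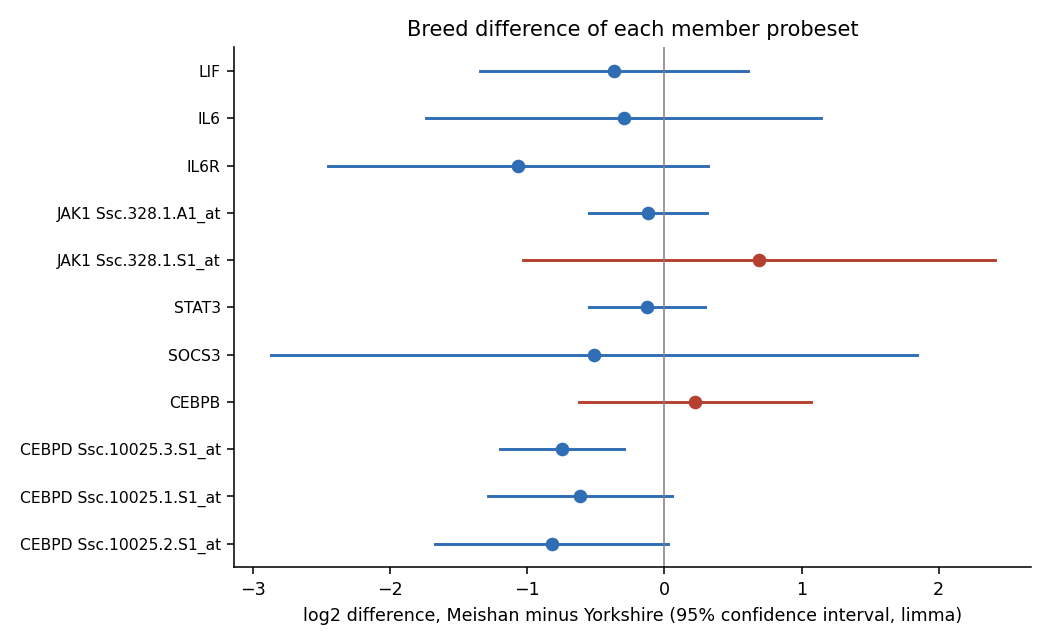
Log2 difference of each member probeset, Meishan minus Yorkshire, with its 95% confidence interval from limma (n = 4 gilts per breed); points left of 0 are lower in Meishan. Only the interval of the brightest CEBPD probeset, -1.20 to -0.30, leaves out 0, and that of SOCS3 is the widest.

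CEBPD, the transcription factor induced by STAT3, had 3 probesets. At the brightest, signals were 1918, 2622, 2813 and 1855 in Meishan gilts, against 3843, 3900, 3917 and 3561 in Yorkshire gilts. Every Yorkshire gilt lay above every Meishan gilt. The Yorkshire gilts were almost alike, with an SD of 0.06 on the log2 scale, and the Meishan gilts less so, with an SD of 0.31. The geometric means were 2264 in Meishan and 3802 in Yorkshire, 1.68-fold greater in Yorkshire (log2 difference -0.75, SE 0.20, limma adjusted p = 0.161, unadjusted p = 0.00513). By unadjusted p this probeset was number 764 of the 23999 tested. The study's own names also gave CEBPD to this probeset. The other member probesets did not occur among the probesets named by the study, so its names say nothing about them.

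Some alternative settings called CEBPD and others did not. Its adjusted p in limma was 0.0840 with signals below 32 set to 32, 0.0900 among the brightest 70% of probesets and 0.0653 with a prior that follows brightness, and it ranged from 0.109 to 0.280 in the other 9 alternatives, Storey q-values among them. In the 3 settings that called it, 3.24%, 3.93% and 2.61% of all probesets were called. Without 1 gilt the adjusted p ranged from 0.186 to 0.308, with log2 differences between -0.85 and -0.65. Breeds that stand apart with all 8 gilts cannot overlap without 1 of them, so their separation there adds nothing.

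The other CEBPD probesets lay on the same side. At the probeset of middle brightness the signals were 257, 424, 514 and 271 in Meishan gilts, against 624, 579, 382 and 604 in Yorkshire gilts. Only Yorkshire gilt 3 fell among the Meishan gilts. Here the log2 difference was -0.62 (SE 0.29, interval -1.29 to 0.06, limma adjusted p = 0.378). At the dimmest probeset the signals were 36.8, 93.4, 53.5 and 81.3 in Meishan gilts, against 87.4, 85.9, 107 and 182 in Yorkshire gilts. Only Meishan gilt 2 reached the Yorkshire range. The log2 difference was -0.82 (SE 0.37, interval -1.67 to 0.03, limma adjusted p = 0.356). The breed difference at the brightest probeset differed from that at the next by -0.13 (exact permutation test, two-sided, p = 0.686) and from that at the dimmest by 0.07 (p = 0.857, exact permutation test, a comparison added after the values were seen). These probesets measure the same RNA samples and are not independent evidence.

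Among gilts of a breed the CEBPD probesets agreed only in part. Deviations from the breed means at the brightest probeset had a Pearson correlation of 0.75 with those at the next and of 0.05 with those at the dimmest, over 8 gilts.

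Some cell type markers and control probesets also stood apart between the breeds in the same arrays as CEBPD. So did 10.1% of all tested probesets, and none of the markers passed in limma. The marker lists not named in this paragraph held no gene that stood apart. Of the summed signals of the marker lists, only that of 7 endothelial markers did not overlap between the breeds. It lay between 5839 and 5917 in Meishan gilts, against 5980 to 7995 in Yorkshire gilts. Of these markers, 3 lay toward Meishan and 4 toward Yorkshire, and the vascular cadherin CDH5 (1229 in Meishan and 1839 in Yorkshire) did not overlap between the breeds. Of 7 stromal markers, 3 did not overlap, VIM (25490 in Meishan, against 18370 in Yorkshire) and DCN (18750 in Meishan, against 15540 in Yorkshire) with Meishan above, and PDGFRB (2631 in Meishan, against 3263 in Yorkshire) with Yorkshire above. Among 6 markers of endometrial secretion and steroid receptors, 2 lay toward Meishan and 4 toward Yorkshire, and only PGR, the progesterone receptor, did not overlap (a mean signal of 336 in Meishan gilts, against 495 in Yorkshire gilts, with an adjusted p of 0.263 by limma). Spike-in controls added to every hybridization, which measure no pig RNA, had mean log2 signals of 11.68 to 12.61 on Meishan and 10.80 to 11.24 on Yorkshire arrays (exact permutation test, two-sided, p = 0.0286, the smallest possible with n = 4 per breed). Another set of controls, the polyA spike-ins, did not overlap either, at 8.07 to 8.99 on Meishan and 7.69 to 7.98 on Yorkshire arrays (exact permutation test, two-sided, p = 0.0286). The part of these in the CEBPD difference was not tested.

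CEBPB, the relative of CEBPD, gave another picture. Its signals were 12420, 4697, 6137 and 9656 in Meishan gilts and 5817, 4911, 6209 and 10450 in Yorkshire gilts. Meishan gilts 1 and 4 and Yorkshire gilt 4 stood high, and the other 5 gilts of both breeds lay between 4697 and 6209. CEBPB had a log2 difference of 0.22 (SE 0.37, interval -0.62 to 1.07, limma adjusted p = 0.822) and -0.01 without Meishan gilt 1. The within-breed SD was 0.56 on the log2 scale, against a median of 0.27 for equally bright probesets.

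**Figure D3:**
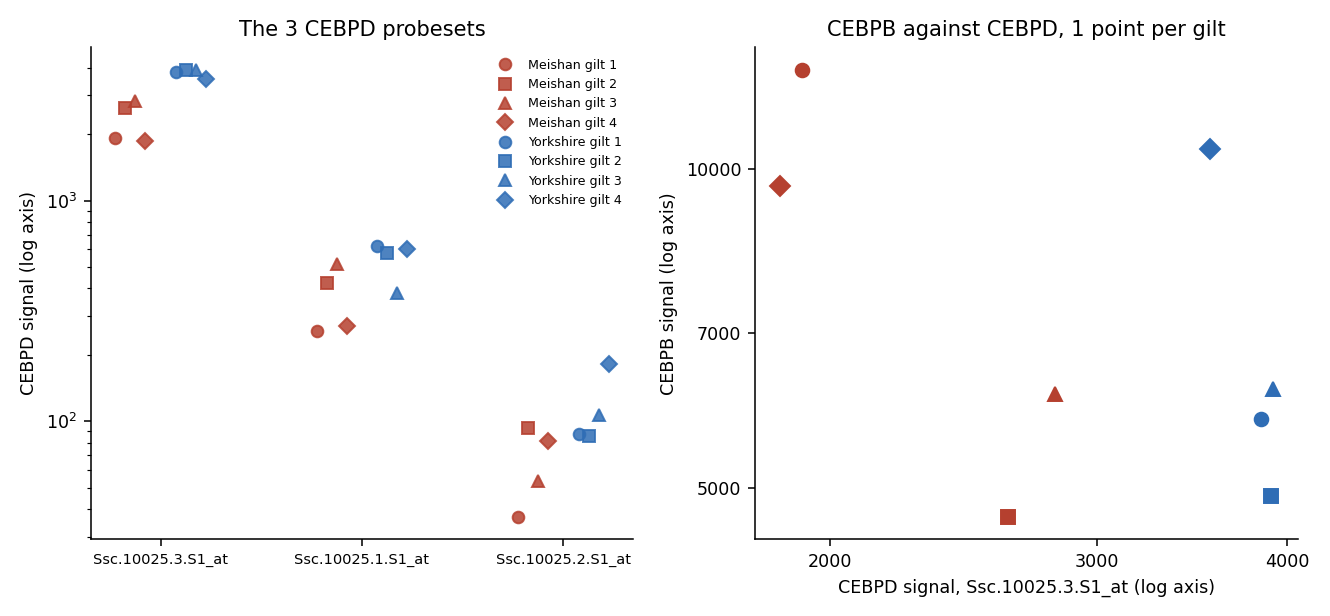
Left, signal of the 3 CEBPD probesets in each gilt; right, CEBPB signal against CEBPD signal at its brightest probeset, 1 point per gilt, with log axes throughout, red for Meishan and blue for Yorkshire. Meishan gilts 1 and 4 and Yorkshire gilt 4, with most CEBPB in their breeds, had least CEBPD, and all Yorkshire gilts lie right of all Meishan gilts.

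Whether the members varied together among gilts of 1 breed was examined with the 8 genes at their brightest probesets, after removal of the breed means. Of the 28 pairs, 16 had a positive and 12 a negative Pearson correlation, and 0 passed after Benjamini-Hochberg adjustment, with 1 at an unadjusted p under 0.05 (exact permutation within breeds, two-sided). The unadjusted count was 3 without further scaling, 4 with quantile normalization and 0 to 3 with 1 gilt left out, and 0 pairs passed after adjustment in any of these. The pair with all 8 gilts was JAK1 and CEBPD (r = 0.52, exact permutation p = 0.0295, adjusted p = 0.389, Spearman's rho = 0.71, exact permutation p = 0.0104, adjusted p = 0.292). Its r was 0.17 without Meishan gilt 4 and Yorkshire gilt 4, the gilts farthest from the median of JAK1. With 1 gilt left out it lay between 0.30 and 0.67. Leaving out the farthest gilts narrows the range of JAK1, which can by itself lower r.

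The correlation largest in size was that of CEBPB and CEBPD, which was negative (r = -0.81, exact permutation p = 0.0590, adjusted p = 0.389, rho = -0.76, exact permutation p = 0.142, adjusted p = 0.729). It was -0.82 without the gilts farthest from the median of CEBPB, Meishan gilt 1 and Yorkshire gilt 4, and between -0.87 and -0.73 when 1 gilt was left out, and its unadjusted exact permutation p was 0.0295 without further scaling and with quantile normalization. IL6 was paired with STAT3 (r = 0.72, exact permutation p = 0.0608, adjusted p = 0.389, rho = 0.62, exact permutation p = 0.0903, adjusted p = 0.729), but r was 0.39 without Meishan gilts 3 and 4. IL6R ran opposite to SOCS3 (r = -0.73, exact permutation p = 0.0729, adjusted p = 0.389, rho = -0.64, exact permutation p = 0.132, adjusted p = 0.729), with r of -0.70 without Meishan gilt 3 and Yorkshire gilt 1. With signals below 32 set to 32, the last correlation was -0.20, both genes being dim. STAT3 and SOCS3, factor and target, had an r of 0.17 (exact permutation p = 0.674, adjusted p = 0.828, rho = 0.17, exact permutation p = 0.705, adjusted p = 0.847), which was -0.20 without Meishan gilt 4 and Yorkshire gilt 1.

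Among 7758 named probesets that reached a mean signal of 64 in both breeds, those most like each member over the 8 gilts were taken by Pearson correlation of log2 signals, with no test. Here the breed means were not removed. For CEBPB they were ATP5B, a subunit of ATP synthase (r = 0.99), and NHP2, a protein of ribonucleoprotein assembly (r = 0.99), and 277 of the probesets exceeded an r of 0.9. For CEBPD they were TXNDC15 (0.99) and CNOT6L, a deadenylase subunit (0.98), with 61 above 0.9. Both lay toward Yorkshire, by -0.62 for TXNDC15 and -0.97 for CNOT6L on the log2 scale, a side that choice by correlation with CEBPD favours.

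STAT3 was followed most closely by VCAM1, an adhesion molecule for leukocytes (0.98), and ZFP91 (0.97). JAK1 was followed by POMT1 (0.96) and SLCO2B1 (0.95), IL6 by the tyrosine kinase FES (0.95) and CHAF1A (0.94), and SOCS3 by GMPR (0.95) and N4BP2L2 (0.94). LIF was followed by MDFIC (0.92) and C7H6orf106 (0.91), with only these above 0.9, and IL6R by RTN4 (0.94) and CUL2 (0.94). The points share arrays and scaling, and the best of so many probesets will correlate highly.

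**Figure D4:**
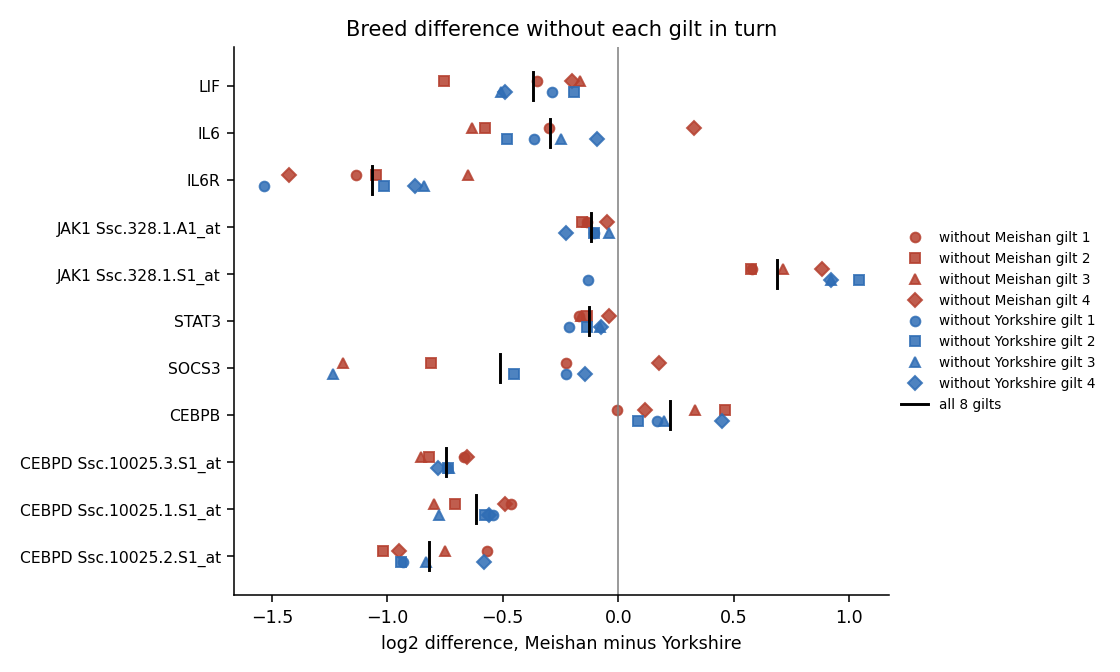
Log2 difference of each member probeset, Meishan minus Yorkshire, with 1 gilt left out (red for a Meishan and blue for a Yorkshire gilt, shapes for gilt numbers) and with all 8 gilts (black bars). The CEBPD probesets stay left of 0 throughout, while IL6, SOCS3, CEBPB and the dimmer JAK1 probeset each cross 0 without 1 gilt.

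Related genes of the pathway were followed with 7 lists of 84 genes in all, of which 50 were measured by 82 probesets. One list, the other ligands of the family, had 0 of its 7 genes on the array under these names. None of the 82 passed in limma, 42 lay toward Meishan and 40 toward Yorkshire, and the median log2 difference was 0.005. Before adjustment 4 probesets toward Meishan and 5 toward Yorkshire had a p under 0.05, against 7.79% of all tested probesets toward Meishan and 6.96% toward Yorkshire. The breeds did not overlap for 2 with Meishan above and 3 with Yorkshire above, against 5.01% and 5.09% of all tested probesets. The receptors IL27RA (-0.22, limma adjusted p = 0.781) and IL11RA (-0.06, limma adjusted p = 0.908) were the 2 measured of 4 listed.

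Among other Janus kinases and STATs, 11 probesets lay toward Meishan and 5 toward Yorkshire. TYK2, a kinase of interferon and interleukin receptors, had 911, 825, 697 and 689 in Meishan gilts, against 1088, 884, 1207 and 1032 in Yorkshire gilts at its brightest probeset. Only the highest Meishan gilt exceeded the lowest Yorkshire gilt (log2 difference -0.43, SE 0.19, limma adjusted p = 0.333), and its 3 dimmer probesets lay on both sides, at 0.56, -0.40 and 0.25. JAK2 had a log2 difference of -0.41 (limma adjusted p = 0.446) at its brightest probeset and 0.41 (limma adjusted p = 0.529) at another, and STAT4, which acts in lymphocytes, one of 0.38 (limma adjusted p = 0.557). Of 14 probesets of inhibitors, 9 lay toward Meishan and 5 toward Yorkshire, with 0 at an unadjusted p under 0.05. The phosphatase PTPN6 had the lowest p at a brightest probeset, with a log2 difference of 0.61 (limma adjusted p = 0.412), and PIAS1 and SOCS1 followed with 0.21 and -0.27 (limma adjusted p = 0.647 and 0.828). The dimmer SOCS1 probesets had log2 differences of 0.65 and -0.42.

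The other C/EBP factors lay on both sides. CEBPG, a short partner of the family, had 142, 110, 180 and 139 in Meishan gilts, against 197, 219, 263 and 367 in Yorkshire gilts, without overlap (log2 difference -0.85, SE 0.26, limma adjusted p = 0.196). CEBPA, a factor of differentiation in several tissues, had 115, 80.8, 150 and 182 in Meishan gilts, against 94.7, 58.2, 32.05 and 75.2 in Yorkshire gilts. Here Meishan gilt 2 and Yorkshire gilt 1 overlapped (log2 difference 1.06, SE 0.39, limma adjusted p = 0.266), and a dim second probeset had -0.25. DDIT3, a stress-induced member, had a log2 difference of -0.47 (limma adjusted p = 0.343).

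Of 36 probesets of genes that STAT3 or acute-phase signalling induces, 17 lay toward Meishan and 19 toward Yorkshire. HPX, the heme-binding plasma protein hemopexin, had 16.2, 56.3, 32.5 and 33.7 in Meishan gilts, against 7.87, 9.76, 11.7 and 10.8 in Yorkshire gilts. The breeds did not overlap, at signals that are dim in both (log2 difference 1.67, SE 0.36, limma adjusted p = 0.117). A2M, a protease inhibitor of plasma, had 4089, 3855, 3084 and 3243 in Meishan gilts, against 4037, 6954, 8902 and 4971 in Yorkshire gilts (log2 difference -0.74, limma adjusted p = 0.268), and its dimmer probesets had 0.31 and -0.36. FOS, an immediate early factor, had a log2 difference of -1.25 (SE 0.61, limma adjusted p = 0.394).

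SAA2, an acute-phase serum amyloid, had probesets on opposite sides and is named here although its dimmer probeset lies outside the rule for named genes, having been chosen after its values were seen. At that probeset the signals were 146, 335, 241 and 250 in Meishan gilts, against 123, 88.4, 81.8 and 70.8 in Yorkshire gilts (log2 difference 1.39, SE 0.30, limma adjusted p = 0.111). At the brighter one they were 977, 732, 948 and 846 in Meishan gilts, against 1093, 1046, 1327 and 1011 in Yorkshire gilts (-0.36, SE 0.18, limma adjusted p = 0.410). The breeds did not overlap at either. Brighter minus dimmer, the log2 signals of a gilt differed by 1.13 to 2.74 in Meishan and 3.15 to 4.02 in Yorkshire gilts, a description with no test, since the probesets were picked for lying apart on opposite sides. Serum amyloid genes are near-identical copies, so which of them each probeset measures is uncertain.

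Of 10 probesets of genes that respond to LIF in the mouse uterus, 4 lay toward Meishan and 6 toward Yorkshire. PRSS23, a serine protease, had 4727, 5144, 3528 and 3533 in Meishan gilts, against 7475, 6698, 6521 and 5087 in Yorkshire gilts (log2 difference -0.61, SE 0.21, limma adjusted p = 0.245). IHH, the hedgehog ligand that signals from epithelium to stroma, had 133, 168, 98.8 and 261 in Meishan gilts, against 99.6, 89.3, 84.4 and 49.4 in Yorkshire gilts. The highest Yorkshire gilt barely exceeded the lowest Meishan gilt (log2 difference 0.99, SE 0.35, limma adjusted p = 0.253), and a dim second probeset had -0.21. SPP1, osteopontin, had a log2 difference of -1.18 (SE 0.57, limma adjusted p = 0.383).

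**Figure D5:**
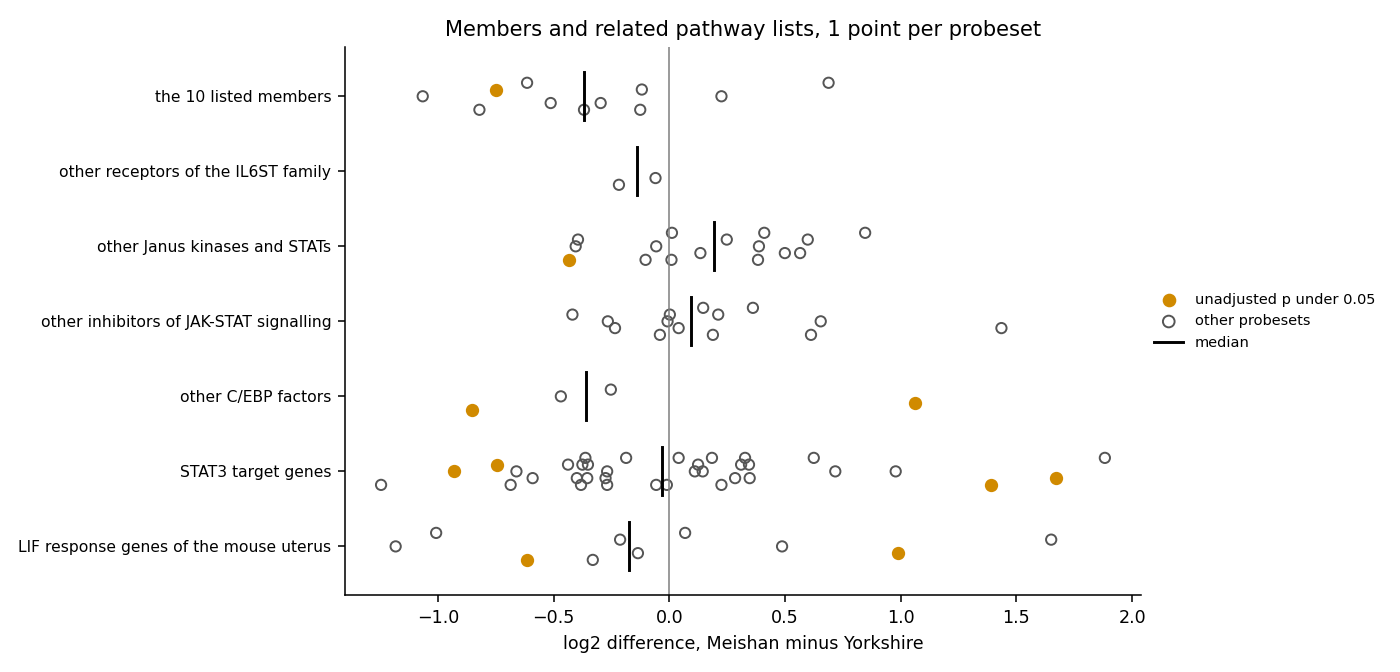
Log2 difference, Meishan minus Yorkshire, of every member probeset (top row) and of every probeset of the related lists, with filled points at an unadjusted p under 0.05 and a black bar at the median of each row. The median of the members is -0.37, and the medians of the 6 lists lie between -0.36 and 0.19.

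The tissue label and the arrays were checked once. Epithelial markers (8 of 9 listed were measured) had summed signals of 26720 to 44570 in Meishan and 28990 to 42890 in Yorkshire gilts. Macrophage markers summed to 1370 to 1823 in Meishan and 1400 to 1771 in Yorkshire gilts, and T and NK lymphocyte markers to 442 to 1033 and 761 to 975. Trophectoderm markers of the conceptus summed to 358 to 1407 in Meishan and 328 to 7031 in Yorkshire gilts. Of the 6 measured, 1 lay toward Meishan and 5 toward Yorkshire, with a median log2 difference of -0.47. None of the marker genes in this paragraph passed in limma, and 1 macrophage and 1 lymphocyte marker had an unadjusted p under 0.05. The 3′ to 5′ difference of the GAPDH control probesets, a sign of RNA quality, was 1.77 to 2.83 on the log2 scale in Meishan and 1.76 to 2.51 in Yorkshire arrays.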

How the data were processed

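Endometrial RNA of 8 gilts had been hybridized to Affymetrix arrays, with 1 array for each animal. The authors made the deposited intensity values with GCOS 1.2 as signals on a linear scale, scaled to a trimmed mean (2% at each end) of 500.1 on every array. Detection calls were not used here.

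Of 24123 probesets, 124 controls were left out. Log2 signals were centred on the median of each array. Meishan was compared with Yorkshire in limma 3.58.1 (R 4.3.3, prior degrees of freedom 2.09) with Benjamini-Hochberg adjustment over 23999 probesets, calling at an adjusted p under 0.1. The slide and animal terms of the study's mixed model cannot be separated with 1 array per gilt. In the annotation 10069 probesets carried 1 symbol, 198 carried several, 0 of them naming a member, and 13732 were unnamed. The procedure was tested on simulated data.

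Named were all member probesets, up to 3 genes per related list with the lowest p at their brightest probeset, and the 2 probesets most correlated with each member. Members and lists were chosen with earlier results of these data known. Correlations used exact permutation within breeds (576 arrangements). Gilts with the same number did not deviate together (correlations of -0.0561 to 0.0890). Precision is limited by the number of arrays. The gilts were separate animals.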

Additional observations from a re-analysis of the deposited data

Results flagged for a closer look

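Of 56 groups of 4 gilts examined, covering every member probeset and the related genes named by rule, 2 held a gilt far from the other 3 of its breed, and chance alone flags about 1 in 20 such groups. At the dimmer JAK1 probeset Yorkshire gilt 1 had a signal of 6.07 while the other Yorkshire gilts lay between 54.2 and 69.8. At the CEBPD probeset of middle brightness Yorkshire gilt 3 had a signal of 382 while the other Yorkshire gilts lay between 579 and 624.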

How the results depend on the processing

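The brightest CEBPD probeset kept its side in all 12 alternatives. Its log2 difference was -0.73 to -0.67 with array quality weights, without further scaling or with another normalization. In the rest it stayed at -0.75, so its side could not turn there. This probeset was called in 3 of the 12. The count of member probesets called was therefore 1 with a floor of 32 on signals, among the brightest 70% of probesets and with an intensity trend in the prior, and 0 otherwise, the replicate number as a block included (CEBPD -0.75, limma adjusted p = 0.280). Related probesets called numbered 1 in the same 3 settings (SAA2) and 2 with array quality weights or Storey q-values (SAA2 and HPX), and 0 to 2 without 1 gilt, the 2 being SAA2 and HPX without Meishan gilt 1. Member probesets without overlap numbered 2 with quantile or cyclic loess normalization, both of CEBPD (9.05% and 9.18% of all probesets), and 1 to 3 without 1 gilt (12.7% to 17% of all probesets, and 15.3% without Meishan gilt 2, where there were 3). The median log2 difference of the members was -0.13 with a floor of 32. With 1 gilt left out it lay between -0.71 (Meishan gilt 2) and -0.047 (Meishan gilt 4). IL6 reversed to 0.14 with a floor of 32. Without 1 gilt, log2 differences ranged from -0.63 to 0.33 for IL6, from -0.13 to 1.04 for the dimmer JAK1 probeset, from -1.23 to 0.18 for SOCS3 and from -0.007 to 0.46 for CEBPB, and the contrast of probesets from -1.15 to 0.028 for JAK1 and from -0.22 to 0.044 for CEBPD. Other alternatives turned no member. Over all probesets 218 were called, against 777 with the floor, 660 among the brightest, 626 with the trend, 497 with weights, 632 with Storey q-values, 582 with these on an unmoderated model without further scaling, 60 at an adjusted p under 0.05, 0 with the block (3327 at an unadjusted p under 0.05) and 72 to 205 without 1 gilt. Standard errors were 0.63 for IL6, 0.60 for IL6R, 0.75 for the dimmer JAK1 probeset and 1.02 for SOCS3, all dim. The cause of these changes was not tested.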
